A study of Mus musculus with 4 samples.

Results

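Receptors that steer cell migration by chemokines, lipid mediators and other chemoattractants were described in 2 subpopulations of the mouse common lymphoid progenitor (CLP), a bone marrow progenitor of lymphocytes. A list of 35 such genes was used, and each was represented by the brightest of its probe sets that the platform annotation gives to 1 gene. This covered 34 of the 35 genes among 18193 genes measured, and Fpr1 was not analysed here. The cells came from bone marrow of C57Bl6 mice aged 8 to 12 weeks and were sorted as CLP_RAGhigh or CLP_RAGlow, which the sample descriptions also name by high or low GFP. The reporter behind the GFP is not described in the labels. Each group had 2 arrays, labelled as biological replicates 1 and 2, made from 2000 cells each. The labels do not tell if different animals were used for the replicates, and p-values speak only of the spread among these 4 arrays, which may be technical.

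Chemokine receptors are G-protein-coupled receptors that sense secreted chemokines and direct cells along their gradients, mostly through inhibitory G proteins. In the bone marrow CXCL12 from stromal cells holds progenitors through Cxcr4, while Ccr9 and Ccr7 help progenitors settle in the thymus. Receptors for sphingosine-1-phosphate guide cells between tissue and blood, and receptors for prostaglandin E2 either raise cyclic AMP (Ptger2, Ptger4), lower it (Ptger3) or act through calcium (Ptger1).

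Signals are given as log2 of the deposited RMA intensity, and differences as CLP_RAGhigh minus CLP_RAGlow on that scale. The signal of a probe set also depends on its probes, so signals do not rank transcripts of different genes by abundance. A signal is called dim where it lies below 3.88, the median over all probe sets and arrays, because RMA does not separate such values from background. In sorted bulk RNA, fewer cells with a transcript and less transcript per cell cannot be told apart. The group labels were checked with Rag1, whose signals in CLP_RAGhigh were 10.92 and 10.62 and in CLP_RAGlow 7.72 and 8.53. Here and below, the value of replicate 1 comes first in each pair. All 10 genes listed for CLP identity, among them Il7r, Flt3, Kit and Dntt, had mean signals above the median, where 63.6% of all genes did. For markers of other cell types the count ran from 2 of 8 (stromal and endothelial) to 12 of 13 (neutrophil and monocyte). The count alone thus does not set CLP identity apart. Array medians lay between 14.5 and 14.8 on the linear scale, and the ratio of the 3' to the 5' Gapdh probe set between 10.6 and 20.0. One array stood apart in immediate early genes, induced within minutes by stimulation or handling. Their summed linear signal over 10 genes was 6561 on CLP_RAGhigh replicate 1 and between 463.5 and 718.9 on the other arrays. The excess was largest for Fos, at 12.27 on that array and 5.17 to 7.28 on the others. It was not shared by all 10, as Egr1 read 6.48 there and 6.28 on CLP_RAGlow replicate 1, and Nr4a1 was lowest there, at 5.11. The same array had the highest summed signal of 5 erythroid markers, 717.5 against 283.4 to 456.9 on the others. Prg2, an eosinophil marker, read 5.74 there and 2.21 to 2.33 elsewhere. The summed signal of 7 eosinophil, basophil and mast markers was not highest there (121.4, against 109.3 to 151.2).

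The receptors ranged from bright signals to signals among the dimmest on the array. Mean signals lay above the median for 16 of 34 receptors (47.1%), against 63.6% of all genes. The prostaglandin E2 receptors were all above it, 4 of 4, as was Ccrl2, the only member of its class. Of the sphingosine-1-phosphate receptors 3 of 5 were above, of the CC chemokine receptors 4 of 9 and of the CXC chemokine receptors 2 of 5. Both CX3C and XC receptors (Cx3cr1, Xcr1), the oxysterol receptor Gpr183 and the measured chemerin, complement and formyl peptide receptors (Cmklr1, C5ar1, Fpr2) were below it.

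**Figure D1:**
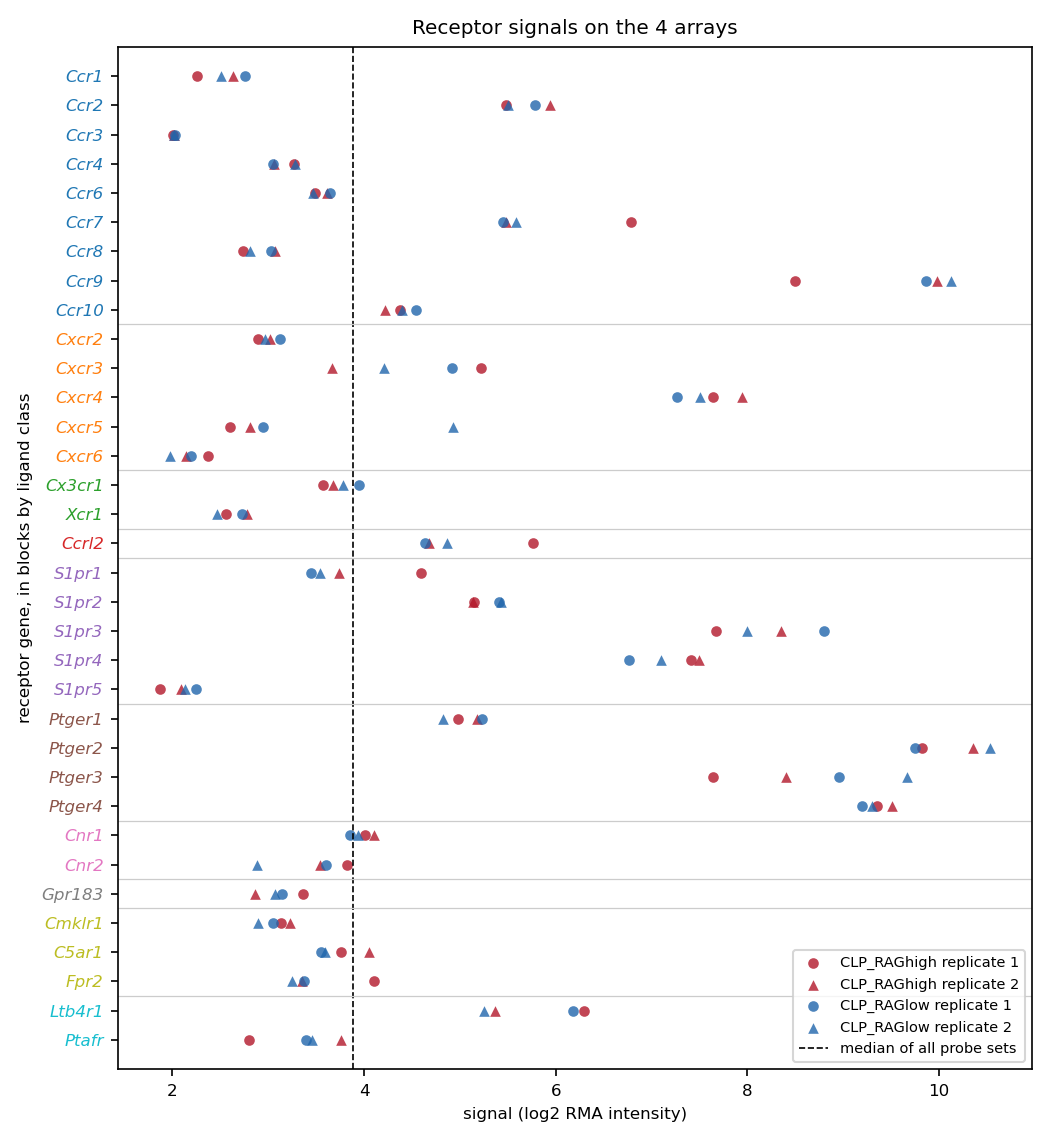
Log2 RMA signal of the 34 measured receptors (rows, in blocks by ligand class) on the 4 arrays, with red for CLP_RAGhigh, blue for CLP_RAGlow, circles for replicate 1 and triangles for replicate 2. The dashed line is the median of all probe sets, 3.88, and 18 receptors have a mean below it; Ptger2, Ccr9 and Ptger4 lie far to its right.

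No receptor differed between the subpopulations beyond the test's threshold. With limma, 0 of 34 had an adjusted p under 0.05 over all genes, where 0% of all 18193 genes did. At an unadjusted limma p under 0.05, 0 receptors were higher in CLP_RAGhigh, where 2.35% of all genes were, and 1 was lower, where 2.94% of all genes were (5.29% in either direction). The groups did not overlap for 13 receptors (38.2%), 7 with both CLP_RAGhigh arrays above both CLP_RAGlow arrays and 6 below, while 31.1% of all genes did not overlap, 15.4% above and 15.8% below. The median difference was 0.004 over the 34 receptors and 0.003 over all genes, and the median size of a difference was 0.19 and 0.20. The counts for the receptors were thus close to those of the array as a whole. With 2 arrays against 2, an exact permutation test of a single gene cannot give a two-sided p below 0.333.

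**Figure D2:**
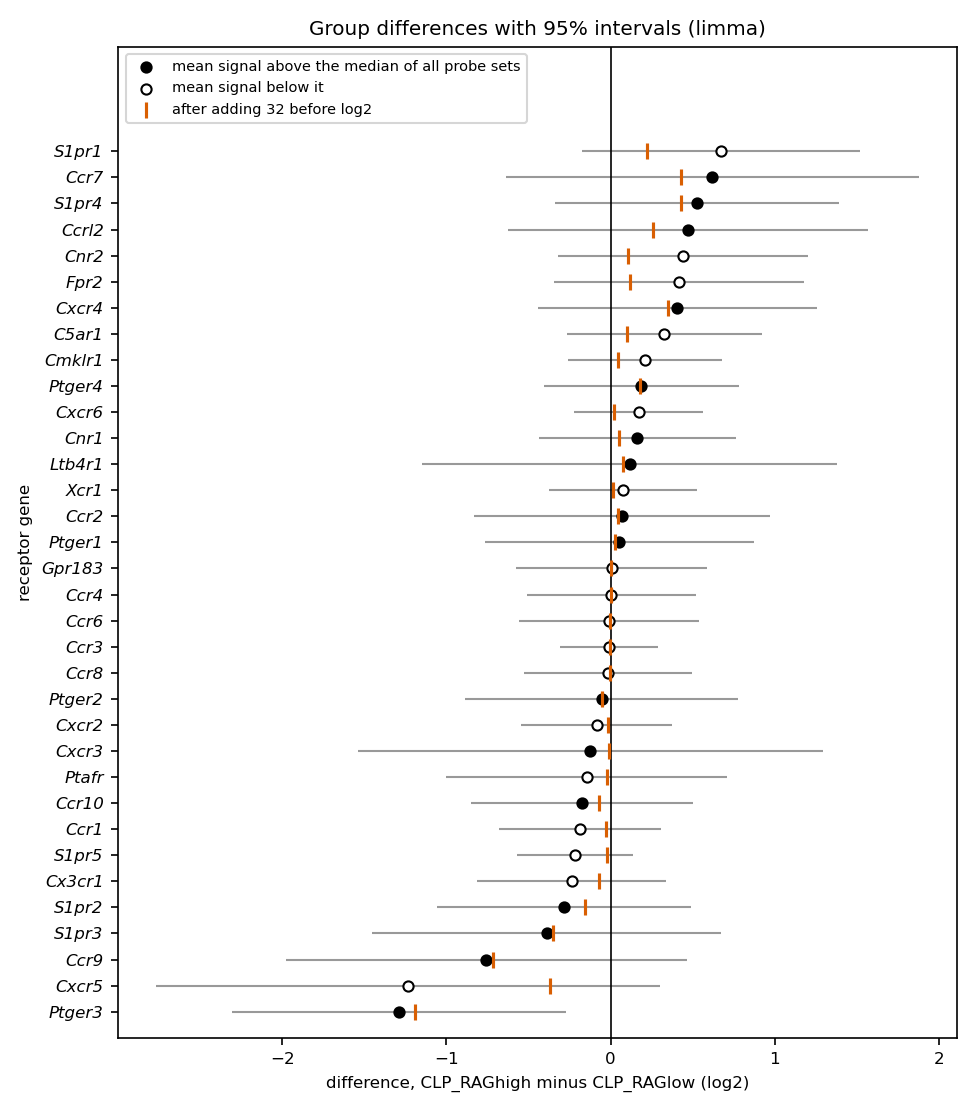
Difference in log2 signal between CLP_RAGhigh and CLP_RAGlow for each measured receptor, with 95% intervals from limma (n = 2 arrays per group), filled points for receptors above the median signal, open points for dim ones, and orange ticks for the difference after 32 was added before log2. The interval of Ptger3, from -2.31 to -0.27 before adjustment, is the only one of the 34 that lies on one side of 0.

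Prostaglandin E2 receptors held the largest difference of the receptors. Ptger3, whose receptor lowers cyclic AMP, read 7.65 and 8.40 on the CLP_RAGhigh arrays and 8.96 and 9.67 on the CLP_RAGlow arrays. Both CLP_RAGhigh values lay below both CLP_RAGlow values, although the gap between the groups was smaller than the spread within either. The means were 8.02 ± 0.54 and 9.31 ± 0.51 (SD, n = 2 each), and the difference of -1.29 ± 0.41 (SE) corresponds to 2.44-fold less signal in CLP_RAGhigh, with a limma p of 0.0214 before and 0.869 after adjustment. This value comes from the brighter of 2 probe sets. The other was dim on every array and differed by -0.012, so that their average was -0.65. Leaving out CLP_RAGhigh replicate 1 gave -0.91 and leaving out CLP_RAGlow replicate 2 gave -0.93.

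The receptors that raise cyclic AMP did not share this difference. Ptger2 read 9.83 and 10.36 in CLP_RAGhigh and 9.75 and 10.54 in CLP_RAGlow. Replicate 2 was above replicate 1 in both groups, by more than the groups differed (-0.05 ± 0.34), and the 95% interval of the difference ran from -0.89 to 0.78. Ptger4 read 9.36 and 9.51 in CLP_RAGhigh and 9.19 and 9.30 in CLP_RAGlow. These groups did not overlap, but the difference of 0.19 ± 0.24 was small and its interval ran from -0.41 to 0.78. The dimmer probe set of Ptger4 read 4.54 and 3.60 in CLP_RAGhigh and 2.93 and 2.72 in CLP_RAGlow, a difference of 1.25. It went the same way as the brighter probe set, but it was dim on 3 of the 4 arrays. Ptger1, the calcium-coupled member, had a signal of 5.08 ± 0.14 in CLP_RAGhigh and 5.03 ± 0.29 in CLP_RAGlow and differed by 0.05 ± 0.33. Its other probe set, dim on all arrays, differed by -0.78, and their average was -0.36. Whether the difference of Ptger3 is unlike those of Ptger2 and Ptger4 was not tested.

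Of the 5 sphingosine-1-phosphate receptors 2 were higher and 3 lower in CLP_RAGhigh, none with an unadjusted limma p under 0.05. The median size of their differences was 0.39, against 0.20 over all genes. S1pr1, the receptor that draws lymphocytes out of tissue into blood and lymph, read 4.59 and 3.74 on the CLP_RAGhigh arrays and 3.45 and 3.54 on the CLP_RAGlow arrays. Only CLP_RAGhigh replicate 1 was above the median of all probe sets. The difference was 0.67 ± 0.34, with an interval from -0.175 to 1.517. It was 0.22 after adding 32 before log2 and 0.24 without CLP_RAGhigh replicate 1, where the summed signal of immediate early genes was high. The part of those genes in the S1pr1 value was not tested. S1pr4, a receptor largely found in blood cells, read 7.42 and 7.50 against 6.76 and 7.10. Here the groups did not overlap and both CLP_RAGhigh arrays were close together, with a difference of 0.52 ± 0.35 and an interval from -0.34 to 1.39. S1pr2, which can restrain migration, read 5.14 and 5.13 against 5.41 and 5.43. Its arrays agreed closely within each group, and the difference was -0.28 ± 0.31, where limma's error draws on the spread of other genes at similar signal. That value comes from a probe set marked as cross-hybridising, and the other probe set, which was dim, differed by 0.10.

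S1pr3 was well above the median on 1 of its 3 probe sets. This probe set read 7.67 and 8.35 in CLP_RAGhigh and 8.80 and 8.00 in CLP_RAGlow, overlapping groups with a difference of -0.39 ± 0.43. The other probe sets had mean signals of 4.01 and 3.38 and differed by 0.58 and -0.06, and the average of all 3 was 0.046. S1pr5, known from natural killer cells, was dim and read 1.87 and 2.09 against 2.25 and 2.13. Its groups did not overlap, and the difference was -0.22 ± 0.14, or -0.025 after adding 32 before log2.

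Of the chemokine receptors with known parts in progenitor homing, Cxcr4 and Ccr9 had clear signals in both subpopulations. Cxcr4 read 7.64 and 7.94 in CLP_RAGhigh and 7.27 and 7.50 in CLP_RAGlow. Both CLP_RAGhigh arrays were the higher ones, by a margin smaller than the spread within either group. The difference was 0.41 ± 0.34, or 1.33-fold, with an interval of the fold from 0.737 to 2.39. Cxcl12, its ligand, was dim on average in both groups, with signals from 3.23 to 3.91. The 8 stromal and endothelial markers, Cxcl12 among them, had a summed linear signal between 96.0 and 111.7. Of these 8 genes 6 had a mean below the median, and 2, Pecam1 and Vcam1, lay above it.

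Ccr9, the receptor for the thymic and intestinal chemokine CCL25, read 8.50 and 9.98 in CLP_RAGhigh and 9.87 and 10.13 in CLP_RAGlow. The low value belonged to CLP_RAGhigh replicate 1 alone, while the other CLP_RAGhigh array lay among the CLP_RAGlow arrays. The difference was -0.76 ± 0.49, and without that array it was -0.015. Of its 5 probe sets the brightest is marked as one that can cross-hybridise. The next read 6.37 and 7.10 against 6.64 and 8.04 and differed by -0.60. The 3 dimmer probe sets differed by -0.43, 0.14 and -0.11. Ccr9 is also a marker of plasmacytoid dendritic cells, and the summed linear signal of 8 measured markers of those cells was 2859 and 3408 in CLP_RAGhigh and 3973 and 5035 in CLP_RAGlow. Of these 8 genes 6 were lower in CLP_RAGhigh and 2 higher. The groups did not overlap for 4 of the lower ones, Pacsin1 (-1.18), Cox6a2 (-1.06), Bst2 (-0.90) and Irf8 (-0.65), and for 1 of the higher ones, Siglech (0.31). The part of these cells in the Ccr9 value was not tested.

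Ccr7, which guides cells to the thymus and lymph nodes, read 6.79 and 5.49 in CLP_RAGhigh and 5.45 and 5.59 in CLP_RAGlow. It stood out on CLP_RAGhigh replicate 1 only, and its difference of 0.62 ± 0.51 became -0.032 without that array. Ccrl2, an atypical receptor that binds chemerin without signalling, had the same arrangement, with 5.76 on that array and 4.64 to 4.86 on the other three. Fpr2, a receptor for formyl peptides, read 4.11 there and 3.25 to 3.38 elsewhere. Among the 34 receptors CLP_RAGhigh replicate 1 held the highest value for 9 (26.5%) and the lowest for 12 (35.3%), against 21.0% and 32.2% of all genes. The association of these receptors with the immediate early genes or the erythroid and eosinophil markers of that array was not tested.

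Cxcr5, the receptor that leads mature B cells into follicles, differed by -1.23 ± 0.62, the next largest difference after Ptger3, but from dim signals. It read 2.60 and 2.81 in CLP_RAGhigh and 2.95 and 4.93 in CLP_RAGlow. CLP_RAGlow replicate 2 was the only array above the median, and without it the difference was -0.24. After adding 32 before log2 it was -0.37. The summed linear signal of 5 measured markers of mature B cells lay between 114.1 and 175.8, highest on CLP_RAGlow replicate 2. The brightest of them, Cd74, read 6.80 and 6.17 against 6.54 and 7.06. Of these 5 genes 2 were higher in CLP_RAGhigh and 3 lower. The groups did not overlap for 1 of the higher ones, Cd22 (0.68), and for 2 of the lower ones, Ms4a1 (-0.39) and Fcer2a (-0.16). Ms4a1 and Fcer2a were dim. After adding 32 before log2 the differences were 0.24 for Cd22, -0.08 for Ms4a1 and -0.04 for Fcer2a. The part of mature B cells in the Cxcr5 value was not tested.

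The remaining CC and CXC receptors, many of them known from effector T cells, monocytes or granulocytes, were dim or had small differences. Ccr2, the receptor of inflammatory monocytes, was above the median on 1 of its 4 probe sets, at 5.48 and 5.94 against 5.79 and 5.50, a difference of 0.07 ± 0.36. The others were dim and differed by -0.60, 0.09 and -0.06, and the average of all 4 was -0.125. Cxcr3, a receptor of effector T cells, varied more within the groups than between them, reading 5.22 and 3.66 against 4.92 and 4.21. Ccr10, a receptor for skin and mucosal chemokines, lay just above the median at 4.38 and 4.22 against 4.55 and 4.39, and its groups did not overlap, by a margin smaller than the spread within either. Ccr1, Ccr3, Ccr4, Ccr6, Ccr8, Cxcr2 and Cxcr6 were dim in both groups, with differences between -0.19 and 0.17. Cx3cr1 read 3.58 and 3.68 against 3.95 and 3.78, while its other probe set differed by 0.18, and Xcr1 was dim throughout.

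Several of these genes lie side by side in the mouse genome, as the RefSeq gene table (assembly GRCm38.p6) orders them. Cxcr6, Xcr1, Ccr1, Ccr3 and Ccr2 follow one another with only Ccr1l1 between Ccr1 and Ccr3, and Ccr9 precedes Cxcr6 with 1 gene, Fyco1, between them. In this run the brightest probe sets of the end genes Ccr9 and Ccr2 had signals above the median in both subpopulations, whereas the 4 receptors between them were dim. Cx3cr1 and Ccr8 are also neighbours, and both were dim.

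The receptors for oxysterols, cannabinoids, platelet-activating factor, complement and leukotriene B4 gave no difference near the threshold. Gpr183, which positions lymphocytes by oxysterols, was dim on both its probe sets and differed by 0.005 ± 0.24. Cnr1 lay close to the median, at 4.01 and 4.11 against 3.86 and 3.94, groups that did not overlap but differed by only 0.16 ± 0.24. Cnr2, the cannabinoid receptor of immune cells, was dim and lowest on CLP_RAGlow replicate 2, at 2.88. Ltb4r1, which draws leukocytes toward leukotriene B4, read 6.30 and 5.36 against 6.18 and 5.25, so that replicate 1 was the higher array in both groups and the group difference was 0.11 ± 0.51. Ptafr differed by -0.15 ± 0.35 and was dim.

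C5ar1, the receptor for the complement fragment C5a on neutrophils and monocytes, read 3.75 and 4.05 in CLP_RAGhigh and 3.55 and 3.60 in CLP_RAGlow, and Cmklr1, the signalling chemerin receptor, 3.14 and 3.23 against 3.05 and 2.89. In both cases the CLP_RAGhigh arrays were above, by 0.33 ± 0.24 and 0.21 ± 0.19, or 0.10 and 0.04 after adding 32 before log2. Some neutrophil genes were uneven between arrays, with S100a8 at 9.63, 9.60 and 10.15 on the first 3 arrays and 3.81 on CLP_RAGlow replicate 2. S100a9, Ngp, Camp and Ltf were also lowest on that array, while Mpo, Ctsg, Elane and Prtn3 were not. Mpo stayed between 10.70 and 11.03 on all 4 arrays. The neutrophil receptor Cxcr2 was dim, between 2.89 and 3.12 on all 4 arrays, a range where RMA does not separate signal from background. The summed signal of 13 neutrophil and monocyte markers ranged from 4373 to 4559 in CLP_RAGhigh and from 3401 to 6383 in CLP_RAGlow. Of these 13 genes 7 were higher in CLP_RAGhigh and 6 lower. The groups did not overlap for 1 of the higher ones, Elane (0.41), and for 2 of the lower ones, Csf1r and Csf3r (-0.83). Csf1r, a monocyte marker, read 6.79 and 8.26 against 9.31 and 9.54. The part of neutrophils and monocytes in the C5ar1 and Fpr2 values was not tested.

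Probe sets of 1 gene often disagreed. Of the 34 receptors 19 had a single probe set and 15 had several, which pointed in one direction for 6 genes and in both for 9. Of those 9, Ccr1, Cmklr1, Cx3cr1 and Ptafr had no probe set with a mean above the median.

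**Figure D3:**
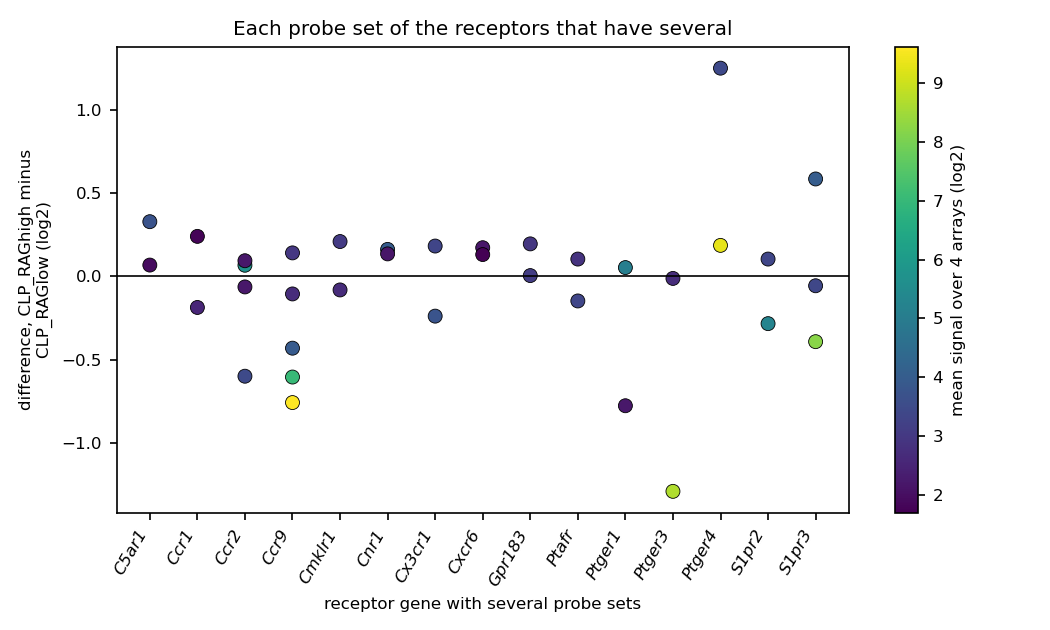
Difference in log2 signal between CLP_RAGhigh and CLP_RAGlow for every probe set of the 15 receptors that have several, coloured by mean log2 signal over the 4 arrays. The bright probe set of Ptger3 lies at -1.29 and its dim one near 0, and in Ccr9 the 3 brightest of 5 probe sets all lie below 0.

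Genes around the receptors were read from the same fit as lists of ligands, lipid enzymes, related receptors and signalling proteins. With limma 0 genes of any of these lists passed over all genes, and the counts that follow are of an unadjusted limma p under 0.05. Over all genes 2.35% were higher and 2.94% lower in CLP_RAGhigh at that p. Of 28 measured chemokine ligands 0 were higher and 1 was lower in CLP_RAGhigh, and 15 were dim on average. The lower one was Ccl25, the ligand of Ccr9, a dim gene with a difference of -0.93 ± 0.31, or -0.22 after adding 32 before log2. The dim genes Pf4 and Cxcl13 differed by 0.48 and 0.47, or 0.13 each after adding 32, and Ccl9 by 0.46. Of 26 enzymes and transporters of lipid mediators 0 had such a p. Spns2, which exports sphingosine-1-phosphate, read 9.38 and 8.82 against 8.18 and 8.58, and Alox5ap, which helps make leukotrienes, 9.37 and 8.55 against 9.82 and 9.50. For both genes the groups did not overlap, in opposite directions, with differences of 0.72 ± 0.34 and -0.70 ± 0.35. Napepld and Cyp7b1 were dim and differed by 0.47 and -1.09, or 0.08 and -0.25 after adding 32.

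Of 29 other receptors of the same families 22 were measured. At that p 2 of them (9.09%) were higher in CLP_RAGhigh, where 2.35% of all genes were, and 1 was lower, where 2.94% of all genes were. P2ry10, a receptor for lysophospholipids, read 7.67 and 7.64 in CLP_RAGhigh and 5.27 and 6.94 in CLP_RAGlow, a difference of 1.55 ± 0.60 with a limma adjusted p of 0.928. Gpr18, a receptor found in lymphocytes, read 8.07 and 8.77 against 6.99 and 7.67 and differed by 1.09 ± 0.42. In both cases the CLP_RAGhigh arrays were the higher ones. The margin for Gpr18 was smaller than the spread within either group. For P2ry10 it was smaller than the spread between the CLP_RAGlow arrays. Lpar3 and Gpr34 were dim and differed by -0.52 and -0.50, or by -0.06 each after adding 32.

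The proteins that carry the signal from receptor to cytoskeleton had 5 of 43 measured genes (11.6%) higher in CLP_RAGhigh and 0 lower at that p, where 2.35% of all genes were higher. They were Ric8a, which assists folding of G-protein alpha subunits, Pik3r5, a regulatory subunit of the phosphoinositide kinase under G-protein-coupled receptors, Coro1a, an actin regulator, Gna12, a G-protein alpha subunit, and Plcb2, a phospholipase under G proteins, named after its values were seen. Pik3r5 read 7.21 and 7.69 against 5.68 and 6.29, a difference of 1.47 ± 0.41. Coro1a read 11.99 and 11.79 against 11.42 and 11.46, and Plcb2 6.44 and 6.47 against 5.40 and 5.64. For all 5 the groups did not overlap, and the smallest limma adjusted p among them was 0.666, for Ric8a. Of the 43 genes 40 had means above the median of all probe sets, and 3.01% of all genes above it were higher at that unadjusted p. The list was chosen with earlier results of these data known. Averaging all probe sets moved the Ric8a difference from 0.59 to 0.27 and that of Gna12 from 1.23 to 0.32, while that of Coro1a went from 0.45 to 0.72. The list's median difference was 0.05, against 0.003 for all genes, and Gnai2, the main inhibitory G-protein subunit of lymphocytes, differed by -0.17 ± 0.20.

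**Figure D4:**
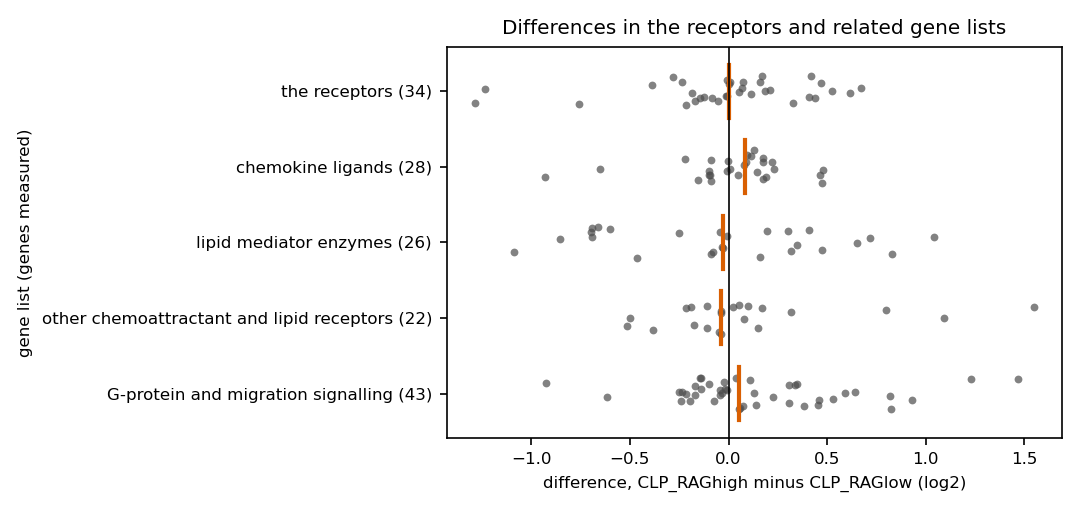
Differences in log2 signal between CLP_RAGhigh and CLP_RAGlow of the receptors and of 4 related gene lists, 1 point per gene with random vertical spread and an orange bar at each list's median. All 5 medians lie between -0.04 and 0.08, and the genes farthest to the right are P2ry10 and Pik3r5.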

How the data were processed

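The authors deposited 1 RMA intensity per probe set and array from Affymetrix MOE430_2 arrays, per the labels' design text, after a dual amplification of the RNA. Which software and build were used is not given in the sources used here, and coordinates are left out. Values ran from 2.35 to 19893, a linear scale, and log2 was taken. Of 45101 rows 64 controls were left out, and the platform annotation gave 1 gene for 34945 probe sets, several for 932 and none for 9160, of which only the first kind was used. The brightest probe set per gene gave 18193 genes.

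Groups were compared with limma 3.58.1 in R 4.3.3 (lmFit, eBayes with intensity trend, two-sided, Benjamini-Hochberg over all genes, threshold 0.05), with 2 residual and 3.75 prior degrees of freedom, and tested on simulated data. The number of arrays limits the precision. Values on every array are given for receptors whose groups do not overlap, those with an unadjusted p under 0.05 and the 8 with the highest mean. The other receptors are given more briefly. Of each related list up to 4 genes with the smallest p are named, only some with values on every array. The members and lists were chosen with earlier results of these data known. Alternatives covered the choice of probe set, an offset of 32, dim genes, the trend, normalization, a replicate block and each array left out. Same-numbered arrays did not deviate together (correlation -0.0248), so the numbers were not taken as pairs. Figures used matplotlib 3.10.9.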

Additional observations from a re-analysis of the deposited data

How the results depend on the processing

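Under all 11 alternatives 0 receptors passed the adjusted threshold, and the median difference of the receptors stayed between -0.066 and 0.106. The number with an unadjusted limma p under 0.05 was 1 as reported, 0 with probe sets averaged, 2 with the replicate block (Ptger3 and Cxcr5), and from 0 to 7 when 1 array was left out. The 7, without CLP_RAGhigh replicate 2, were Ccr7, Ccr9, Ccrl2, Fpr2, Ptafr, Ptger3 and S1pr1, where CLP_RAGhigh replicate 1 stands for its group alone and is assumed to vary like the other group; the count was 0 without CLP_RAGhigh replicate 1 or without CLP_RAGlow replicate 2, and 2 without CLP_RAGlow replicate 1. Receptors whose groups do not overlap numbered 13 of 34. Without genes below the median they numbered 7 of 16, where 34.0% of all remaining genes do not overlap. Without CLP_RAGhigh replicate 1 they numbered 19 of 34, where 71.4% of all genes do not overlap. Without CLP_RAGhigh replicate 2 they numbered 29, against 68.9% of all genes. Without CLP_RAGlow replicate 1 or replicate 2 they numbered 23, against 60.2% and 60.5% of all genes. Over all genes 0 passed as reported, 2 with probe sets averaged, 1 without genes below the median, 3 with quantile normalization once more and 7 with the replicate block, and no receptor was among them. With 1 array left out the sign turned for 4 to 9 of the 34 receptors, and with probe sets averaged for 4. Among the 17 receptors that the rule for values on every array selects it turned, with 1 array left out, for Ccr7 (-0.032 without CLP_RAGhigh replicate 1, up to 1.27 without the other), Ptger2 (from -0.45 without CLP_RAGlow replicate 1 to 0.34 without CLP_RAGlow replicate 2, and 0.21 without CLP_RAGhigh replicate 1) and S1pr3 (from -0.79 without CLP_RAGlow replicate 2 to 0.012 without CLP_RAGlow replicate 1). Among these 17 it also turned for S1pr2 without probe sets marked _x_at or _s_at (0.10) and S1pr3 with probe sets averaged (0.046). The cause was not tested. Which signals lie above background could not be read from these values.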
